A study of Mus musculus with 4 samples.

Results

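Deep intragenic peaks are ATF4 pull-down peaks that lie far inside genes. A peak of the series-wide list was taken where its midpoint fell within the span of a protein-coding gene and at least 10 kb from both ends of every protein-coding gene, on chromosomes 1 to 19 of the mouse build mm10. The rule used position only and no peak height. It took 13711 of 41639 peaks, which was 33.7% of the 40722 peaks on these chromosomes (exact 95% Clopper-Pearson interval 33.2% to 34.1%).

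The chromatin came from heart ventricle of mice aged 4 weeks, as 2 ATF4 pull-down samples and 2 input samples whose values are not analysed here. All 4 samples share that tissue and age, and the labels state no strain, genotype or treatment. Crosslinked chromatin was captured on streptavidin beads, and each pull-down sample has its own peak list. For the pull-down samples the antibody label says AAV and nothing more, so the heart's own ATF4 and ATF4 from a viral vector cannot be told apart. The titles mark the pull-down samples with the tag bio, which can stand for biological replicates. The labels do not say that the replicates came from separate animals, so differences between them may be biological or technical. With 1 group of 2 samples no test between conditions exists. No read counts are in the lists, so the depth of sequencing is unknown. Intervals below cover counting error over peaks or genes only, which are not independent replicates.

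ATF4 is a basic leucine zipper transcription factor and the main effector of the integrated stress response, in which kinases slow general protein synthesis while ATF4 mRNA is translated more. It binds DNA as a dimer, often with a C/EBP family partner at composite sites, and drives genes of amino acid supply and protein folding. Sites far inside genes can be enhancers of the host gene or of a neighbour, internal promoters, or places where chromatin is open and a factor is captured with no known effect. A peak shows captured chromatin and measures neither the transcription of the host nor a function of the site.

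The label of these peaks was checked against annotated start sites, since a place inside a gene span is not always away from a promoter. RefSeq promoter sequences of GRCm38.p6, the assembly of mm10, were available for 31396 starts. They were lacking for a single chromosome, which is named in the account of data processing below. Of 13105 deep intragenic peaks on the other chromosomes, 321 covered part of such a window, and they overlapped 368 windows. Of these windows, 266 belonged to an internal start of the host itself, in 226 hosts, and 102 to another gene inside it. The summit lay within 150 bp of the start at 218 of the 368 windows. The sequences below are the 250 bases before the start of 7 such internal promoters, read 5′ to 3′ on the strand of the gene. Ablim1 and Ctnna3 are shown because their peaks had the highest mean folds among those over an internal start of the host itself, and the other 5 because they hold a match to the C/EBP-ATF composite motif TGATGNAA. Capitals mark matches, on either strand, to TGATGNAA, to the cyclic AMP response element TGACGTCA or to the AP-1 type motif TGANTCA.
Ablim1 chr19:57197632-57197881 strand -: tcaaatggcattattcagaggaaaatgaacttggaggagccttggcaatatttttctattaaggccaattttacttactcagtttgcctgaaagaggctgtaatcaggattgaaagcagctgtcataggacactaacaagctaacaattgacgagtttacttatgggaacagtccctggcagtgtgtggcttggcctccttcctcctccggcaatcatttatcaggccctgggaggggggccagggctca
Ctnna3 chr10:63457261-63457510 strand +: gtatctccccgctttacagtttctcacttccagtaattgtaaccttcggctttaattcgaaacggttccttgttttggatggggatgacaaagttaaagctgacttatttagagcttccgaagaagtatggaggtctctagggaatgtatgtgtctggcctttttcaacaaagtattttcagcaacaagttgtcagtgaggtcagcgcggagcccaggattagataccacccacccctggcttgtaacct
Slc7a11 chr3:50443614-50443863 strand -: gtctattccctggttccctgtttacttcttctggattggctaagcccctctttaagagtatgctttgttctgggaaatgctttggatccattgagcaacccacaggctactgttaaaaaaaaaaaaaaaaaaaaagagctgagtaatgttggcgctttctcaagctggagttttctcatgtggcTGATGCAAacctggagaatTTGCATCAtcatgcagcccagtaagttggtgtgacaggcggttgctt
Pacsin2 chr15:83432851-83433100 strand -: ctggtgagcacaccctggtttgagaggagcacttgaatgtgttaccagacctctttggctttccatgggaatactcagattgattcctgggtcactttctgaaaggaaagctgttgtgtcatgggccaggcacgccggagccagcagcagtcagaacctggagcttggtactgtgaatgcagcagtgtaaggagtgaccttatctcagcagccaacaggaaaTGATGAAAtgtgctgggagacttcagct
Creb5 chr6:53573124-53573373 strand +: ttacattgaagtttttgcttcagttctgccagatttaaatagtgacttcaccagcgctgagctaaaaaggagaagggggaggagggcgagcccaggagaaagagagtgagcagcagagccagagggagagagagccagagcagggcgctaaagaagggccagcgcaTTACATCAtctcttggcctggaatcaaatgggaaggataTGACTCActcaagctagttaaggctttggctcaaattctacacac
Ank2 chr3:127409059-127409308 strand -: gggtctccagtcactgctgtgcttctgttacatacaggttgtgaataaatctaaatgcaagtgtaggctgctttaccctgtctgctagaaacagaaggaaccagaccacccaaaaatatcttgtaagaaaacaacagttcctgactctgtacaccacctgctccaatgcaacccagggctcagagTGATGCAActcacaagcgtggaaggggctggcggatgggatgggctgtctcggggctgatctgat
Akt2 chr7:27605547-27605796 strand +: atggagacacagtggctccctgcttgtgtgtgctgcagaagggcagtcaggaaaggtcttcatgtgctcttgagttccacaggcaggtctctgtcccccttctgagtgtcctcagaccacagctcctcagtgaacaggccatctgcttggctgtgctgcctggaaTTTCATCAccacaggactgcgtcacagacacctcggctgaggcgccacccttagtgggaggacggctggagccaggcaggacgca

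Here and below, fold is the authors' peak enrichment over a constant background of the sample, and it is not a ratio to input. Slc7a11 encodes the cystine and glutamate exchanger and is a textbook ATF4 target. Its internal promoter held 2 matches to TGATGNAA, and the peak over it had a fold of 21.5 in replicate 1 and 29.3 in replicate 2, with the summit 49 bp from the start. The peak lay 55.3 kb from the nearest end of the gene span used here. Internal refers to position in that span only. Which start of a gene is its main one was not determined, so an internal start can be the main promoter. Creb5, which encodes a basic leucine zipper factor, held 1 match to TGATGNAA and 1 to TGANTCA under a peak of 19 and 21.7. The peak at Pacsin2, a gene of membrane curvature, had 33.5 and 33.7. Ank2, which encodes an ankyrin that anchors ion transporters in heart muscle, had 15.5 and 13.7, and Akt2, a kinase of insulin signalling, had 14.0 and 15.1. Ablim1, of actin binding, had 64.0 and 64.7 and Ctnna3, which encodes a catenin of the intercalated disc, had 54.5 and 53.6, with the summit 446 bp from the start. Neither window held any of these motifs. These 7 peaks were seen in both replicates, with Slc7a11 the pair that differed most.

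Motif shares under deep intragenic peaks were set beside those of all windows, of outer gene starts with a peak and of internal starts without one. Outer starts are here all RefSeq starts within 1 kb of either end of a protein-coding gene. Of the 6018 with a peak, 5522 belonged to protein-coding genes. TGATGNAA was found in 14 of 368 windows under such a peak (3.80%), in 3.30% of all 31396 windows, and in 1.89% of the 6018 windows at outer gene starts that had a peak. TGACGTCA was found in 1.63%, 1.58% and 3.77% of the same sets, and TGANTCA in 6.79%, 6.77% and 3.56%. A MEF2-type motif, bound by factors of muscle gene control, was found in 4.35%, 2.83% and 1.56%. The 2779 windows at internal starts without a peak held TGATGNAA in 3.27%, TGANTCA in 7.84% and the MEF2-type motif in 3.38%. They held TGACGTCA in 0.684% (19 windows), against 1.63% (6 windows) under deep intragenic peaks. The median GC content was 54.2% under deep intragenic peaks, 52.4% in all windows, 61.2% at outer starts with a peak and 48.8% at internal starts without one. A match describes letters in a window and is neither a binding site nor a cause of a peak. The part of base composition in these shares was not tested. Peaks away from these windows could not be read in this way because no genome sequence was used here.

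Peaks over an internal start were a small share of deep intragenic peaks. Those 321 peaks were 2.45% of the deep intragenic peaks on chromosomes with windows. They had a median fold of 14.6 and a median width of 640 bp, against 14.0 and 412 bp for the 12784 others. Of 3150 windows at internal starts, 371 (11.8%) lay under any peak of the series-wide list, against 33.7% of 17833 windows at outer starts. Few deep intragenic peaks therefore overlapped a listed start. Starts that the RefSeq table lacks would not be seen. Hairpins of 3 intragenic microRNAs were also covered, Mir1960 in Hadhb, Mir7117 in Ank and Mir7212 in Retreg1.

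Peaks were densest at gene ends and then lay at a nearly even density through most of the gene interior. In gene sequence within 1 kb of an end the series-wide list had 88.2 peaks per Mb. The density was 31.0 per Mb at 1 to 2 kb, 21.6 at 5 to 10 kb, 21.8 at 10 to 20 kb, 23.2 at 20 to 50 kb and 22.0 at 50 to 100 kb. It was lower farther in, with 15.6 per Mb at 100 to 200 kb and 8.40 beyond 200 kb, distances that exist only in long genes. Replicate 1 alone had 154 per Mb within 1 kb, 43.2 at 10 to 20 kb and 17.5 beyond 200 kb, and replicate 2 alone had 171, 49.2 and 19.1. In all 3 lists the density was highest at the ends and lowest beyond 200 kb. The limit of 10 kb did not fall at a step in the data: 392 peaks at 10 to 11 kb had a median fold of 13.5, and 425 intragenic peaks at 9 to 10 kb had 14.2. The pull-down averages the cells whose chromatin was captured, and the labels do not say which cells of the ventricle these were. A site used in fewer cells and a site captured less per cell cannot be told apart.

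**Figure D1:**
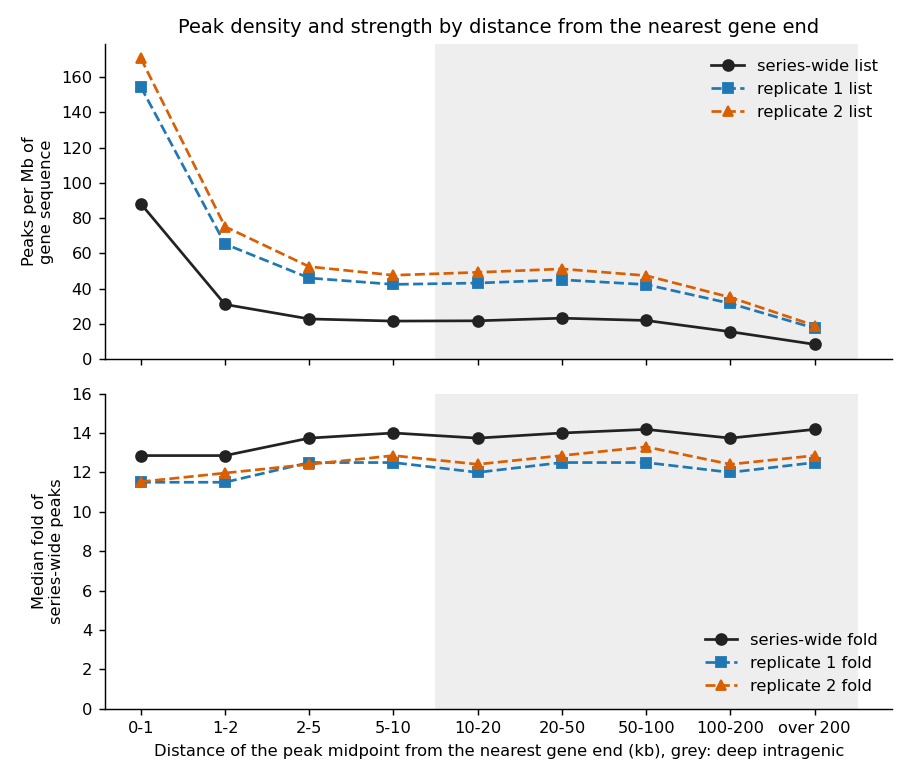
Peaks per Mb of gene sequence (top, y axis) and median fold of series-wide peaks (bottom, y axis) by distance from the nearest gene end in kb (x axis); the grey area marks deep intragenic distances, black is the series-wide list, blue replicate 1 and orange replicate 2. Density is 88.2 per Mb at the ends and near 22 per Mb from 5 to 100 kb in the series-wide list, while the median fold stays between 12.9 and 14.2.

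The peaks of this kind were found in both replicates nearly without exception, which the making of the list favours. Of the 13711 peaks, 13425 (97.9%, exact interval 97.7% to 98.1%) overlapped a peak of both replicates by at least 1 bp, beside 97.6% of all 41639 peaks. The list is named as one selected for reproducibility between replicates, so this share was built in. A further 1 peak was found in 1 replicate and 285 in neither. Of these 285, 276 lay beyond the last replicate peak of their chromosome, on chromosomes 13 to 19, where the replicate lists stop before the series-wide list does. Within the range that the replicate lists cover, 13425 of 13435 peaks (99.9%) were in both. On chromosome 14, for example, the replicate lists stop at 106948896 and 106948893 and the series-wide list at 124802299. Replicate values for genes beyond those points, such as Prkce, Erg, Runx1 and Gpc6, do not exist and are not zeros.

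The replicate lists, which were not selected in this way, give a lower share. Replicate 1 had 26358 deep intragenic peaks, of which 80.3% overlapped a peak of replicate 2, and replicate 2 had 29722, of which 71.4% overlapped a peak of replicate 1. For peaks within 1 kb of a gene end the shares were 88.4% and 81.5%, and for peaks outside genes at least 10 kb from an end 79.8% and 69.6%. Support followed peak strength. In replicate 1, 58.4% of deep intragenic peaks under 7.5-fold had a partner, 85.4% from 7.5 to 10, 97.5% from 10 to 15, and all 3956 from 15 to 30. In replicate 2 the shares were 45.5%, 78.2%, 95.9% and 99.9%. Below 7.5-fold, peaks within 1 kb of a gene end had a partner more often, at 69.1% in replicate 1 and 56.0% in replicate 2, a difference of the same direction in both samples.

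**Figure D2:**
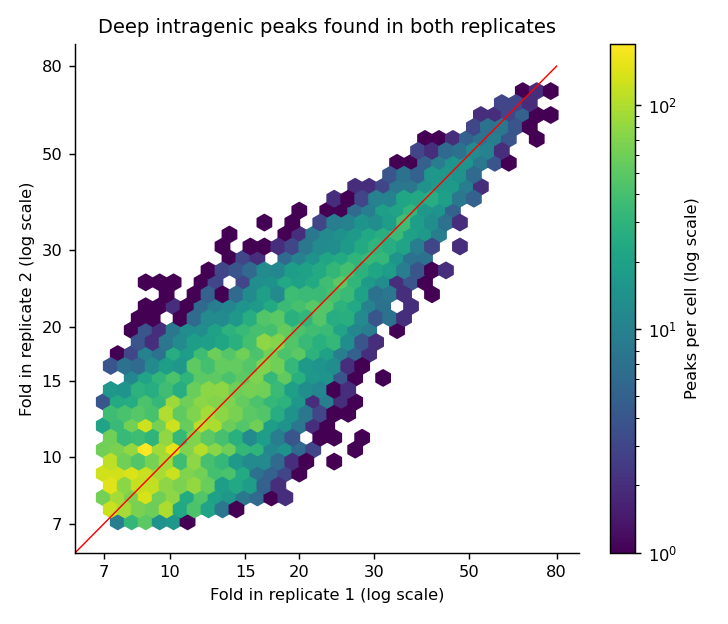
Fold in replicate 1 (x axis, log scale) and in replicate 2 (y axis, log scale) of the 13425 deep intragenic peaks found in both; colour gives the number of peaks per hexagon on a log scale and the red line marks equal values. The peaks spread around the line, widest at low fold and narrowest at the top, with Spearman's coefficient 0.793 across peaks.

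Deep intragenic peaks were about as strong as peaks far outside genes and narrower than peaks at gene ends. Their median fold was 14.0 (quartiles 10.6 and 19.9, range 7.5 to 77.5), with 12.5 in replicate 1 and 12.9 in replicate 2. Series-wide values are the higher of the pair, which is why both replicate medians lie below. Peaks within 1 kb of a gene end had 12.9, with 11.5 and 12 in the replicates, and peaks outside genes at least 10 kb from an end had 14.2, with 12.5 and 12.9. A fold of at least 30 was reached by 1283 deep intragenic peaks (9.36%), 5.84% of gene-end peaks and 9.51% of peaks far outside genes, beside 8.77% of all peaks on these chromosomes. The median width was 417 bp, against 618 bp at gene ends and 405 bp far outside genes. Peaks of at least 1500 bp made up 0.999% of deep intragenic peaks and 4.17% of gene-end peaks.

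Values of the replicates were compared over peaks of a list named as selected for reproducibility between them. That selection favours close values, so the agreement below was partly built in. Across the 13425 peaks, Spearman's correlation between the replicates' folds was 0.793 and Pearson's r was 0.912, as descriptions over peaks that share a pair of libraries. Spearman's coefficient was 0.750 for peaks within 1 kb of a gene end and 0.779 for peaks outside genes at least 10 kb from an end. At the deep intragenic peaks the median distance between the replicates' summits was 22 bp. Replicate 2 had the higher fold at 7386 peaks and replicate 1 at 6039. The folds were not scaled between samples.

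A minority of genes long enough to hold such a peak did so. Of 20665 protein-coding genes, 9576 span at least 20 kb and 9425 have eligible sequence, meaning sequence at least 10 kb from every gene end. Among these, 3812 held at least 1 deep intragenic peak, which is 40.4% (exact interval 39.5% to 41.4%). In the replicate lists 52.4% and 55.2% of the 9259 eligible genes within their range did. The eligible sequence covered 702 Mb and carried 1.95 peaks per 100 kb, with 3.84 in replicate 1 and 4.33 in replicate 2. By chromosome the series-wide density ran from 1.63 on chromosome 14 to 2.51 on chromosome 19. Atf4 itself is too short to have eligible sequence.

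The peaks were unevenly shared among hosts. Of the 3812 hosts, 1504 held 1 peak, 1417 held 2 to 4, 590 held 5 to 9 and 301 held 10 or more, with a median of 2 and a maximum of 59. A set of 583 hosts held 50% of the assignments of peaks to hosts, and the 100 hosts with the most held 16.7%. Only 78 peaks lay in more than 1 host. The number of peaks followed length in part: across eligible genes Spearman's correlation between the number and the eligible length was 0.593. Hosts had a median eligible length of 72.9 kb, and genes without a peak 15.0 kb. Among genes of 0 to 10 kb eligible length 8.40% held a peak, and among those over 400 kb 88.4% did. Density did not rise in this way. It was between 2.08 and 2.53 per 100 kb in the classes up to 200 kb, 2.12 at 200 to 400 kb and 1.06 above 400 kb, so the longest genes most often held a peak and had the fewest per length. Both replicates gave that order, with 2.14 and 2.36 per 100 kb above 400 kb and 4.91 and 5.55 at 100 to 200 kb.

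The host with the most peaks was Arhgap26, a gene of 775 kb that encodes a GTPase-activating protein. It held 59 peaks in the series-wide list, 101 in replicate 1 and 102 in replicate 2, and its strongest peak (chromosome 18, 38777802 to 38778912) had a fold of 59.5 and 49.6. Its peaks ranged from 7.0 to 59.5 in replicate 1 and from 7.09 to 49.6 in replicate 2. Pakap, which includes an anchoring protein of protein kinase A, held 45 peaks, with 66 and 63 in the replicates. Msi2, of the Musashi RNA-binding proteins, held 41, with 77 and 79, and a pair of them stood out at 58.0 and 57.6 and at 55.0 and 59.8 in replicates 1 and 2. Nfia, a transcription factor gene of the nuclear factor I family, held 40, with 72 and 73, and none of its peaks was above 28.0 in replicate 1 or 26.2 in replicate 2. Its peaks were thus many and of moderate height.

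Other hosts among the 10 with the most peaks held 33 to 37. Tns1, of the focal adhesion protein tensin, held 37 peaks, with 65 and 69 in the replicates. Cacna1c encodes the pore of the cardiac L-type calcium channel and held 35, with 72 and 73. Its strongest (chromosome 6, 119139258 to 119140091) had 59.0 and 63.4, and its next 32.5 and 34.1. Ablim1 and Palld, genes of actin-associated proteins of the Z-disc, held 33 each, with 64 and 61 peaks of Ablim1 and 54 and 57 of Palld in the replicates. Ror1, a Wnt receptor gene, held 35, with 57 in each replicate, and Zbtb20, of a zinc finger repressor, held 33, with 69 and 78. Of the 10 hosts with the most peaks, 8 were among the 10 with the most in replicate 1 and 7 in replicate 2. Every series-wide peak of these 10 hosts was found in both replicates.

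**Figure D3:**
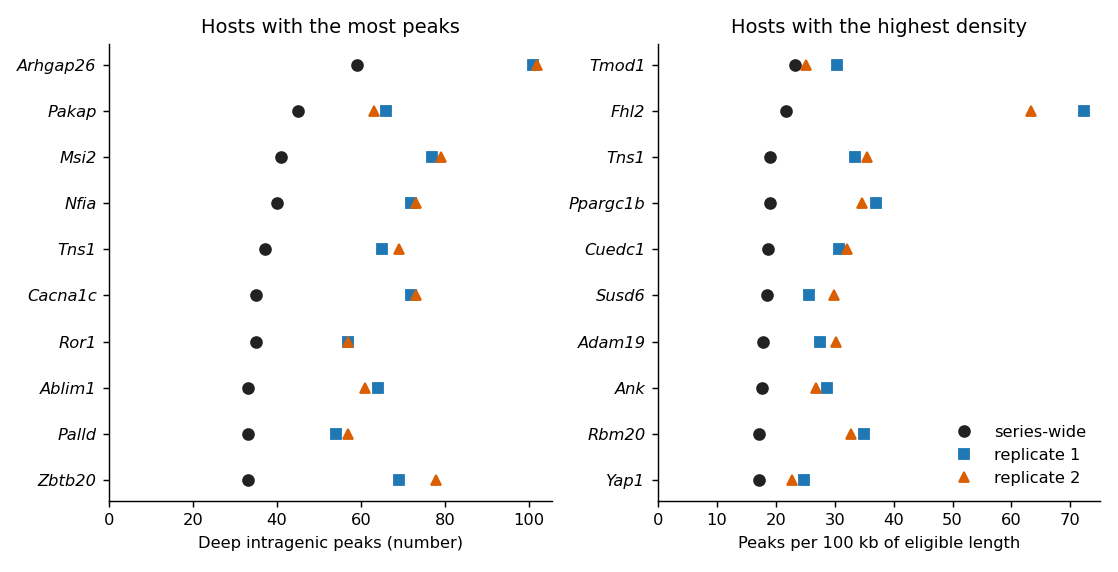
Number of deep intragenic peaks in the 10 hosts with the most (left, x axis) and peaks per 100 kb of eligible length in the 10 hosts with the highest density (right, x axis), in the series-wide list (black circles), replicate 1 (blue squares) and replicate 2 (orange triangles). Arhgap26 leads by number with 59, 101 and 102, and Fhl2 has the highest density in both replicate lists, with 72.4 and 63.3 per 100 kb.

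Per length, other hosts led. Among the 821 hosts with at least 5 peaks and at least 50 kb of eligible length the median density was 4.78 per 100 kb. Tmod1, which encodes the tropomodulin that caps thin filaments, had 13 peaks in 55.8 kb, or 23.3 per 100 kb, with 30.5 in replicate 1 and 25.1 in replicate 2. Fhl2, of a LIM protein abundant in heart, had 12 peaks and 21.7 per 100 kb. In the replicate lists it had 40 and 35 peaks, the highest densities of these 10 hosts at 72.4 and 63.3. Its series-wide peaks were low, up to 14.0 in replicate 1 and 16.4 in replicate 2. Tns1 had 19.1 per 100 kb and was the only host among the 10 leaders by both measures. Ppargc1b, a coactivator gene of mitochondrial metabolism, had 19, with 36.9 and 34.7.

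The remaining leaders by density had 17.1 to 18.7 peaks per 100 kb. They were Cuedc1, Susd6, Adam19, Ank, Rbm20 and Yap1. Rbm20, which encodes the splicing regulator of titin, combined density with number, with 32 peaks, 65 and 61 in the replicates, and 17.2 per 100 kb. Its 3 strongest peaks had 62.5 and 62.1, 60.0 and 55.0, and 54.5 and 54.1 in replicates 1 and 2. Adam19, of a membrane metalloprotease, had 13 peaks, among them a pair at 52.5 and 52.3 and at 45.0 and 53.6. Ank, of a pyrophosphate transporter, had 19 peaks, the strongest at 55.0 and 47.0. Yap1, the effector of Hippo signalling, had 9 peaks and none above 21.5. Across the 3345 genes with at least 50 kb of eligible length, Spearman's correlation between the replicates' densities was 0.929, and across eligible genes the correlation between their numbers was 0.922.

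The strongest deep intragenic peaks are given with their values in replicates 1 and 2. Cdh2, which encodes the N-cadherin of the intercalated disc (chromosome 18, 16740372 to 16741341), had 73.0 and 70.0, or 71.5 ± 2.10 (SD, n = 2). Fhod3, a formin gene of sarcomere assembly (chromosome 18, 24861044 to 24862423), had 70.0 and 69.6, or 69.8 ± 0.291 (SD, n = 2), and 2 more of its peaks had 65.5 and 59.8 and 40.5 and 53.2. Both hosts had a peak with values of at least 69.6 in both samples.

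A further 7 of the 10 strongest had mean folds of 65.0 to 69.2. Sulf2, which encodes a sulfatase of heparan sulfate, had 69.5 and 67.4. Zbtb16, of the zinc finger factor PLZF, had 67.5 and 67.8, the smallest gap of those described here. Klf13, of a Krüppel-like factor, had 71.5 and 63.4, and Scrg1 had 71.5 and 64.3. Myo3a, of an unconventional myosin, had 67.5 and 62.9. Ypel2 had 75.5 and 62.9 and Pde4dip, which encodes myomegalin, had 71.5 and 58.5, the largest gaps. Scrg1 and Klf13 lay just inside the limit, 10.5 kb and 10.8 kb from the nearest gene end, while the peaks of Pde4dip and Myo3a were 78.3 kb and 30.4 kb away. At these peaks of Cdh2, Fhod3 and the 7 further hosts, replicate 1 was higher in all except Zbtb16.

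Many peaks stood close to another in the same host. Of 13633 peaks with a single host, 12160 shared it with another, and the median distance to the nearest other was 5.98 kb. Of these, 5457 (44.9%) had another within 5 kb. Runs of at least 5 peaks spaced by at most 5 kb numbered 85, in 78 hosts. The longest run had 12 peaks over 37.7 kb in Zbtb16, with a median fold of 30.3 in replicate 1 and 22.6 in replicate 2. Tmod1 had a run of 10 peaks in 26.2 kb, with medians of 12.5 and 10.4, and Ppargc1b one of 9 peaks in 21.4 kb, with 17.5 and 13.3. Runs of 8 peaks lay in Ablim1, Hk2, Pitpnm2 and Rhobtb1, and in Ablim1 the run spanned 12.6 kb around the internal start whose sequence is given above. Every peak of the runs named here was found in both replicates, and in the 3 longest replicate 1 had the higher median.

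**Figure D4:**
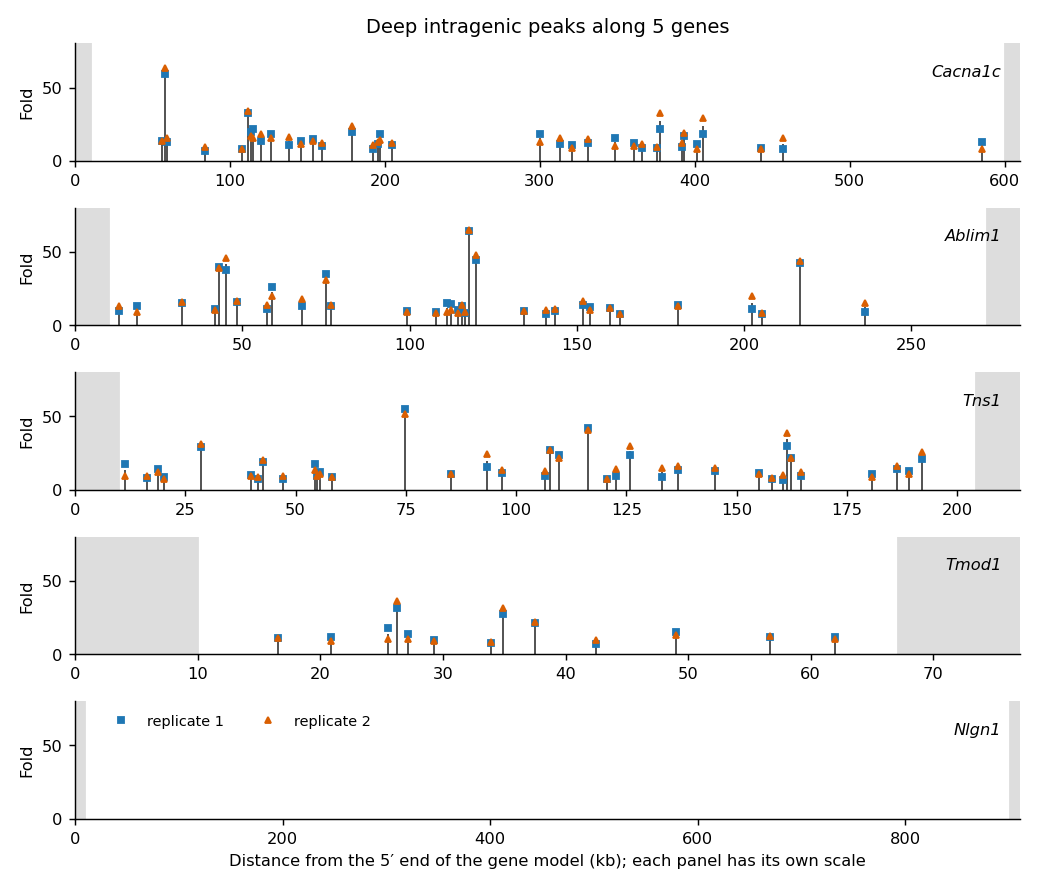
Deep intragenic peaks along 5 gene models, with distance from the 5′ end in kb (x axis, a scale for each gene) and fold (y axis); grey areas are the 10 kb at each end, vertical lines reach the mean of both replicates, blue squares are replicate 1 and orange triangles replicate 2. Cacna1c, Ablim1, Tns1 and Tmod1 have peaks along much of their length with a few far above the rest, and Nlgn1 has none in the series-wide list.

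Position along the gene was close to even between the 5′ and 3′ sides. Of 10624 peaks in hosts whose strand the RefSeq promoter table gives, 5446 (51.3%, exact interval 50.3% to 52.2%) lay nearer the 5′ end, where 50.04% of the eligible length lies. The shares were 51.5% in replicate 1 and 51.9% in replicate 2. Among the 1875 peaks with a fold under 10 the share was 49.0% (exact interval 46.7% to 51.3%). At 10 to 20 kb from the end there were 23.1 peaks per Mb on the 5′ side and 20.4 on the 3′ side. At 50 to 100 kb the order was the other way, with 22.4 and 24.3, and likewise at 100 to 200 kb, with 20.3 and 21.8. Single hosts could be one-sided: in Zbtb20 1 of 33 peaks was nearer the 5′ end, against 23 of 33 in Ablim1.

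Genes that also had a peak at an end carried more peaks inside. The 3587 eligible genes with a series-wide peak within 1 kb of an end had 3.03 deep intragenic peaks per 100 kb, and the 5838 others 1.5. In the replicate lists the values were 5.84 and 3.0 in replicate 1 and 6.53 and 3.41 in replicate 2. The difference had the same direction in every class of eligible length, from 2.66 against 1.65 below 10 kb to 2.18 against 0.845 above 400 kb. An end peak was nevertheless no condition for an interior one, since 1600 of the 3812 hosts (42.0%) had one and the rest did not. Of the 5613 eligible genes without a deep intragenic peak, 1987 (35.4%) had an end peak. Pakap, Nfia, Tns1 and Ablim1, among the leaders by number, had no end peak.

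Lists of genes by role were compared by counts and by peaks per 100 kb of eligible length. All eligible genes, counted gene by gene, had 40.4% with a peak and 1.96 per 100 kb (3.84 and 4.34 in the replicates). The share with a peak was 77.8% at 100 to 200 kb of eligible length and 84.5% at 200 to 400 kb. Counts of list members were not matched for length, so 40.4% is not a like share for lists of long genes. The sarcomere and Z-disc list had 22 of 24 eligible members with a peak and 6.23 per 100 kb, with 12.8 in replicate 1 and 13.4 in replicate 2. Sorbs2, of a sorbin adaptor at Z-discs and adhesions, had 20 peaks, with 33 and 42 in the replicates. Neb, the nebulin gene of skeletal muscle thin filaments, had none in 182 kb, with 6 and 5 in the replicate lists, and Myoz2, which encodes calsarcin-1, had none in 8.80 kb. The dystrophin complex and costamere list had 15 of 17 members with a peak and 2.48 per 100 kb, led by Ank3 with 23 and by Lama2, of the laminin that muscle cells bind, with 18. The list leaves out the sarcoglycan gene Sgcz, which has 1124 kb of eligible length and no series-wide peak. With Sgcz added, chosen after the data were seen, 15 of 18 members had a peak, at 2.05 per 100 kb.

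All 22 eligible members of the calcium cycling and ion channel list held a peak, at 3.85 per 100 kb, with 7.98 and 7.94 in the replicates. After Cacna1c these were led by Itpr1, of a calcium release channel, with 19 peaks, by Slc8a1, of the sodium-calcium exchanger, with 17, and by Camk2d, of the main cardiac calmodulin kinase, with 16. Slc8a1 had 47 peaks in each replicate list, and its series-wide peaks were low, with none above 22.5. The strongest of Camk2d (chromosome 3, 126746225 to 126746913) had 36.0 and 35.0. The cyclic nucleotide list had 21 of 22 members with a peak and 3.32 per 100 kb, or 234 peaks. Its leaders were Prkce, a protein kinase C gene that lies beyond the replicate lists, with 33 peaks, and the phosphodiesterase genes Pde4b with 28 and Pde4d with 26. Pde4d had 2.03 per 100 kb over 1282 kb, close to the value of all genes, against 5.6 for Pde4b. The kinase of Prkce is activated by diacylglycerol and not by a cyclic nucleotide, and without it, chosen after the data were seen, the list had 201 peaks at 3.05 per 100 kb.

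Cardiac transcription factors and coactivators had 23 of 26 members with a peak and 5.59 per 100 kb, with 10.2 and 11.3 in the replicates. After Nfia and Zbtb20, Rora, of a nuclear receptor tied to circadian control, had 31 peaks. Ppargc1a, the coactivator gene of mitochondrial biogenesis, had 30, with 55 and 57 in the replicates, and its 3 strongest peaks had 47.5 and 43.4, 41.0 and 44.8, and 39.5 and 43.0. Tead4, of a factor that binds DNA with Yap1, had none, with 1 and 2 in the replicate lists, and Mef2d had none in any of the 3 lists. In the fatty acid and energy list 18 of 23 members held a peak, at 4.06 per 100 kb. Fto, which encodes an RNA demethylase, had 23 peaks, and the fatty acid transporter gene Cd36 had 10. Hk2, the insulin-responsive hexokinase gene, had 9 in only 29.4 kb, or 30.6 per 100 kb, with 11 and 13 peaks in the replicates and a strongest peak (chromosome 6, 82755875 to 82757224) of 29.0 and 36.8. Its length is below the minimum set for ranking by density. Hadha, of fatty acid oxidation, had none in any list.

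The integrated stress response list covers the pathway of ATF4 itself. It had 9 of 17 eligible members with a peak and 2.33 per 100 kb, with 4.54 in replicate 1 and 6.26 in replicate 2. In the series-wide list 7 of 17 members exceeded the value of all eligible genes. The other 21 of its 38 entries have no eligible sequence. Sesn1, of a sensor of amino acids that restrains mTOR, had 5 peaks, the strongest at 25 and 24.4. Mthfd1l, of mitochondrial folate metabolism, had 5, the strongest at 9.0 and 17.3. Slc7a11 had 2 peaks, that at its internal promoter and another at 7.0 and 11.1. Eif2ak3, the gene of the stress kinase PERK, had 2 peaks at 9.0 and 8.87 and at 10 and 7.54, while the kinase genes Eif2ak4 and Eif2ak1 had none in any of the 3 lists. The median fold of the list's peaks was 11.5, against 14.0 over all deep intragenic peaks.

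Of the autophagy, mTOR and ubiquitin ligase list 16 of 24 members held a peak, at 1.92 per 100 kb. Foxo3, of a transcription factor of autophagy and muscle atrophy, stood above the list with 11 peaks and 14.7 per 100 kb, 20 peaks in each replicate list, and a median fold of 24.5 in replicate 1 and 19.9 in replicate 2. Nedd4l had 12 peaks, with its strongest at 49.0 and 51.9, and Atg7, of autophagosome formation, had 9, the strongest at 39.0 and 41.2. Itch had none in any list.

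Long genes of neurons had many hosts and few peaks for their length. Of the 31 members of the synaptic and neuronal list, 27 held a peak, but their density was 0.399 per 100 kb, with 0.944 and 0.956 in the replicates, and 0 of 31 members exceeded the value of all eligible genes. Ptprd had 21 peaks in 2251 kb, Rbfox1 13 in 1508 kb and Cntn5 and Lrp1b 11 each. Genes over 400 kb of any kind had 1.06 per 100 kb. Among the peaks that did occur, heights were ordinary, with a median fold of 14.6, and the strongest of Rbfox1 (chromosome 16, 7099127 to 7101737) had 42.0 and 33.2. Nlgn1 and Grin2b, of a synaptic adhesion protein and a glutamate receptor subunit, had none, with 1 and 2 and with 2 and 1 peaks in the replicate lists.

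**Figure D5:**
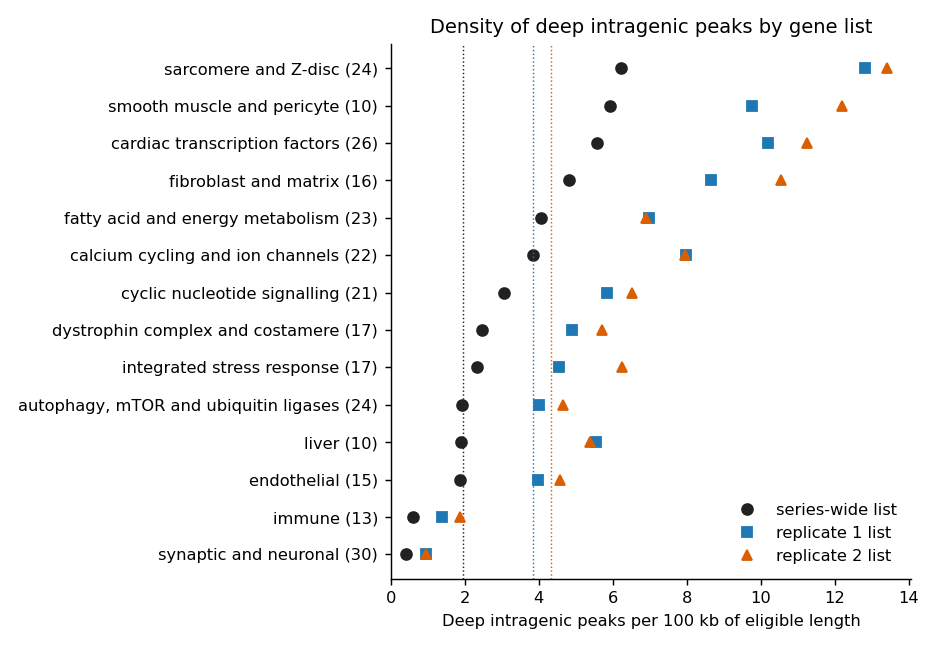
Deep intragenic peaks per 100 kb of eligible length (x axis) for 14 gene lists, in the series-wide list (black circles), replicate 1 (blue squares) and replicate 2 (orange triangles); all values are over eligible members within the range of the replicate lists, whose number is in brackets, and dotted lines give all eligible genes in the series-wide list, replicate 1 and replicate 2. Sarcomere genes lie at 6.23, 12.8 and 13.4, and synaptic genes lie lowest in all 3 lists.

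Some lists held markers of cell types of the heart or of liver. They were chosen with earlier results of these data known, and a peak does not measure expression, so they cannot check the tissue. Besides the sarcomere list, the smooth muscle and pericyte list had 5.92 per 100 kb, with 9.76 and 12.2 in the replicates and 6 of 10 members with a peak. Most of these were in Dgkg and Abcc9, with 10 each, and in Myocd, of the coactivator myocardin that also acts in heart muscle, with 7. The fibroblast and matrix list had 11 of 17 members and 3.48 per 100 kb, or 4.83 without Gpc6, beyond the replicate lists, where the replicates had 8.65 and 10.5. Of its 17 members, 7 exceeded the series-wide value of all eligible genes. Col4a2, of basement membrane collagen, had 16 peaks with the strongest (chromosome 8, 11381876 to 11383304) at 57.5 and 62.1, and Fbn1, of fibrillin, had 14. Fn1 and the defining fibroblast marker Pdgfra had none in any of the 3 lists.

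Endothelial, immune and liver lists were near or below the value of all genes in the series-wide list. The endothelial list had 12 of 16 members with a peak and 2.01 per 100 kb, led by Ptprm with 23 and Erg with 8. The immune list had 8 of 14 and 0.673 per 100 kb, with 1.38 and 1.89 in the replicates. The defining leukocyte marker Ptprc had 1 peak, at 15.5 and 10.2, and the macrophage marker Adgre1 had none in any list. The liver list had 2 of 10 members with a peak and 1.91 per 100 kb, of which 10 of 11 peaks lay in Ghr, the growth hormone receptor gene. In the replicate lists liver genes had 5.55 and 5.37 per 100 kb, above all eligible genes. Ghr held most of those peaks too, with 26 and 23, or 10.6 and 9.36 per 100 kb. In the series-wide list 1 of 10 liver members exceeded the value of all eligible genes. These lists describe where peaks lay, and the share of each cell type in the tissue was not tested.

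The longest genes without any deep intragenic peak were Ccser1, Sgcz, Nlgn1, Nell1 and Lrrtm4, with 1183, 1124, 891, 847 and 771 kb of eligible length. The replicate lists held a few peaks in each, with 4 and 5 in Ccser1, 7 and 3 in Sgcz, 1 and 2 in Nlgn1, 2 and 1 in Nell1 and 2 and 1 in Lrrtm4. Sgcz encodes a sarcoglycan, and Nlgn1 and Lrrtm4 encode synaptic adhesion proteins. None of the 5 had a peak within 1 kb of an end. Of 486 eligible genes of at least 300 kb, 69 had no deep intragenic peak. Length alone therefore did not bring a peak in the series-wide list.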

How the data were processed

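Chromatin of heart ventricle was pulled down on streptavidin beads in 2 ATF4 samples, per the labels' protocols. Per the submitters' processing notes the tools were Bowtie2, MACS2 and deepTools and the build was mm10; roles and versions are not given in the sources used here. The authors deposited a peak list for each sample with a −log10 p-value or q-value per peak, and a series-wide list with a fold enrichment per peak, a ratio to background. Of the peaks with identical coordinates in a replicate and the series-wide list, all but 6, in replicate 2, had a series-wide fold that is a whole multiple of a step in that replicate (tolerance 0.002 of a step). The steps match constant backgrounds of 1.00 and 1.26. The 6 were left out, and the other peaks (17420 and 21047) tied their deposited −log10 values to folds, and replicate folds were read from that relation. The 4 and 5 lowest values, which no such peak matched, continued the steps downwards. A further 2 values in replicate 1 and 9 in replicate 2 lay between matched values and were interpolated to the nearest step. Summit offsets and positions were used as deposited, with starts brought to 1 convention, and 0 value columns were left unmapped. Printed coordinates count from 1.

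Genes were protein-coding spans of a RefSeq table of GRCm38.p6, without exons, so exons and introns were not told apart. Strand came from the promoter table, which has no promoter sequences for chromosome 18. Densities divide peaks by sequence at least 10 kb from all gene ends; replicate densities use genes within the range of the replicate lists. A replicate peak supports a series-wide peak at an overlap of at least 1 bp. Shares have exact 95% intervals (Clopper-Pearson), and no test was run across peaks or genes. The rule for named genes took the 10 hosts with the most peaks, the 10 densest with at least 5 peaks and 50 kb, hosts of the 10 peaks of highest mean fold, the 5 longest without, up to 4 members of each list with the most peaks and the 2 longest without, and Atf4; the text gives a part of the list members, and 1 of the 10 peaks of highest mean fold is not reported here. Genes named for an internal promoter, a microRNA, a run or the range of the replicate lists were chosen after their values were seen. The members and lists were chosen with earlier results of these data known. All list entries matched a symbol, 1 through an older one; Dmd, on chromosome X, was left out. Alternatives were limits of 5 and 20 kb, summits, the ends of all gene models, the 50% of peaks with the highest fold, 50% coverage and each replicate alone. The scripts were tested on simulated data. Scripts ran under Python 3.11.15 with pandas 2.3.3, NumPy 2.4.6, Matplotlib 3.10.9 and SciPy 1.17.1.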

Additional observations from a re-analysis of the deposited data

Results flagged for a closer look

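Chromosome X was outside the rule, and the same criteria found 174 peaks deep inside its protein-coding genes, in 81 hosts, a signal in data that the comparisons above do not use. Of these, 150 were found in both replicates. Where the replicate lists end on chromosome X was not determined, so this count cannot be set beside the share on chromosomes 1 to 19. The density was 0.523 per 100 kb over 33.3 Mb of eligible sequence, below that of every chromosome from 1 to 19, where it was at least 1.63. The median fold was 13.5, close to the 14.0 of the other chromosomes. Dmd, the dystrophin gene, held 7 of the peaks in 2297 kb, with a median fold of 10.6.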

How the results depend on the processing

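With the 50% of peaks of highest fold there were 7198 deep intragenic peaks, 29.7% of eligible genes held one, the density was 1.03 per 100 kb, the median fold 19.5 and the median width 502 bp, as fewer peaks enter by construction. Using the list of 1 replicate alone gave 26358 to 29722 peaks, 71.4% to 80.3% with a partner in the other replicate, 52.4% to 55.2% of eligible genes, 3.84 to 4.33 per 100 kb, median folds of 7.98 to 8.5 and median widths of 282 to 293 bp. These lists hold weaker peaks, and their fold is that of 1 sample rather than the higher of a pair. The share of eligible genes with a peak was 36.6% with a limit of 5 kb, 47.1% with 20 kb and 38.3% when the ends of all gene models were avoided; the set of eligible genes changes with each. The number of peaks was 16155, 10527 and 11151 in these settings. Summits in place of midpoints gave 13704 peaks, and 50% coverage gave 93.8% found in both. Leaving out peaks over any of the 300 bases of a promoter window (250 before the start and 50 after), or peaks found in neither replicate, were alternatives chosen after seeing the data and gave 13388 and 13426 peaks, with densities of 1.91 in both. No paired analysis was possible because the input samples have no values here and the pull-down samples form 1 group. Depth is unknown, so how many weak sites were missed cannot be told, and without input signal a fold cannot be set against local chromatin accessibility.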
